A study of Homo sapiens with 6 samples.

Results

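Lysyl oxidases and collagen hydroxylases are the enzymes that modify collagen before and after it leaves the cell. The genes LOX, LOXL1, LOXL2, LOXL3, LOXL4, P4HA1, P4HA2, PLOD1, PLOD2 and PLOD3 were described in MDA-MB-231, an established human cell line from a triple-negative breast cancer. A gene was taken when the platform annotation gave it a transcript of its own, and the transcript with the highest mean was used where a gene had several. This left 9 of the 10 listed genes, of 14232 genes with a transcript of their own on the array. LOXL3 was not analysed here, since its transcript also lists HTRA2. The cells received HMGA1 siRNA (3 arrays, biological replicates 1 to 3) or control siRNA (3 arrays, biological replicates 1 to 3), in each case by lipofection, and RNA was taken at 48 hours. The labels of the first group name shRNA as well as siRNA, and the study's methods describe siRNA, so they are called siRNA here. All arrays come from 1 cell line. Expression was measured on Affymetrix Human Exon 1.0 ST arrays and is given as log2 values, on which a difference of 1 is a doubling. The list was selected on measured values: earlier results of these arrays were known, for HMGA1 siRNA against control siRNA and for the replicate 3 arrays against the others, and the mean level chose among transcripts. The values in both comparisons are therefore a description.

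Collagen chains are hydroxylated in the endoplasmic reticulum. Prolyl hydroxylases, made of a catalytic alpha subunit (P4HA1, P4HA2) and the chaperone P4HB, modify prolines and so make the triple helix stable at body temperature. Lysyl hydroxylases (PLOD1, PLOD2, PLOD3) modify lysines that later carry sugars and cross-links. Both kinds of hydroxylase need oxygen, iron, ascorbate and alpha-ketoglutarate. Outside the cell, lysyl oxidases, which need copper, oxidize lysines of collagen and elastin to the aldehydes from which cross-links form. LOX and several of the hydroxylases are known targets of the hypoxia-inducible factors (HIF), and LOX is known for its part in invasion and metastasis of hypoxic breast cancer cells.

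HMGA1 itself was measured by a transcript that also lists the pseudogene HMGA1P8. It was at 9.81, 9.65 and 9.76 on the HMGA1 siRNA arrays and at 10.11, 10.25 and 10.35 on the control siRNA arrays. The log2 difference was -0.50 (standard error 0.10, adjusted p = 0.806 from limma), or 0.709 of the control level. All HMGA1 siRNA arrays lay below all control siRNA arrays, a pattern found in 3.51% of all transcripts. Another transcript, which lists APOE as well as HMGA1, had a log2 difference of -0.12 (standard error 0.13), and its groups overlapped. The array medians ran from 8.28 to 8.38. All 9 listed markers of mesenchymal breast cancer lines (VIM and CD44 among them) and all 7 luminal or receptor-positive markers were measured. The mean levels of these lists were 11.29 to 11.39 and 7.93 to 8.06 with HMGA1 siRNA, and 11.33 to 11.38 and 8.07 to 8.14 with control siRNA. Of the 9 mesenchymal markers 7 lay above the median of all transcripts, all but CDH2 and SPARC. Of the 7 luminal or receptor-positive markers 5 lay above it, all but the receptors ESR1 and PGR. ESR1 and PGR were at 6.78 and 5.11 with HMGA1 siRNA and at 6.98 and 5.16 with control siRNA, below the array medians. ERBB2 was at 10.20 with HMGA1 siRNA and 10.19 with control siRNA. Fibroblasts are another source of matrix genes. Of 8 fibroblast markers 7 were measured, at a mean of 6.72 to 6.97 with HMGA1 siRNA and 6.78 to 7.00 with control siRNA, and 3 of the 7 lay above the median of all transcripts. COL1A1, COL1A2 and PDGFRB were at 8.67, 8.89 and 8.54 with HMGA1 siRNA and at 8.61, 8.75 and 8.38 with control siRNA, while DCN and FAP were at 4.60 and 4.19 with HMGA1 siRNA and at 4.65 and 4.22 with control siRNA. The number of arrays limits the precision. These are bulk samples, in which fewer expressing cells and less RNA per cell cannot be told apart.

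The promoters of LOX, P4HA1, PLOD1 and PLOD2 are shown because they hold the letters that HIF binds. Each is the 250 bases before the annotated start, read in the direction of the gene, from RefSeq (GRCh38.p14). They lie at chr5:122078260-122078509 (minus strand, the most upstream of 3 annotated starts), chr10:73096867-73097116 (minus strand), chr1:11934467-11934716 (plus strand) and chr3:146161185-146161434 (minus strand). Capitals mark ACGTG and GCGTG, the core letters that HIF binds, on either strand (CACGT and CACGC on the strand shown).
LOX: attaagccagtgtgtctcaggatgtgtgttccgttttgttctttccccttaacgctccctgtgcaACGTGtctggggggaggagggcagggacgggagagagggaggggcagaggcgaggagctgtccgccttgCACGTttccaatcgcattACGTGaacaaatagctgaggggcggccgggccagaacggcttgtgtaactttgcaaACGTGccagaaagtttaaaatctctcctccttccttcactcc
P4HA1: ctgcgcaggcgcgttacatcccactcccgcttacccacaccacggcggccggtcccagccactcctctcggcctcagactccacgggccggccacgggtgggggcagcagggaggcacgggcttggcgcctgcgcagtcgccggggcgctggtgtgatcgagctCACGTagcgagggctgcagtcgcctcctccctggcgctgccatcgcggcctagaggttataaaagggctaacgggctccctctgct
PLOD1: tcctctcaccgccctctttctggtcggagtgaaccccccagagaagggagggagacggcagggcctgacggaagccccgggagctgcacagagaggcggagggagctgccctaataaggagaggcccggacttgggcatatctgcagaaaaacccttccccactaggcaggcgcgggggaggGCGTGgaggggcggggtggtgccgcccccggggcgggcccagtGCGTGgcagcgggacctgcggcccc
PLOD2: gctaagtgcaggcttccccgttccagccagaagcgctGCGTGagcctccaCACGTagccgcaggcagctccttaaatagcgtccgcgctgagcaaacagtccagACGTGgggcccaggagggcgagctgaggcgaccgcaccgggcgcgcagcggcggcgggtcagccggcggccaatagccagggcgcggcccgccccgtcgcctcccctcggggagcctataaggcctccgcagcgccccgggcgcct
The LOX window held 4 matches, which begin 185, 116, 98 and 42 bases before the start, and the windows of its other starts held 2 each. PLOD2 held 3, at 213, 200 and 146 bases, PLOD1 held 2, at 68 and 25 bases, and P4HA1 held 1, at 86 bases. LOXL1, LOXL4, P4HA2 and PLOD3 held none and are not shown, so 4 of the 8 genes found in the RefSeq promoter table had a match. LOXL2 was not matched there. Among all 35116 promoter windows of this length, 43.2% held at least 1. A match is a description of the letters only.

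The study set HMGA1 siRNA against control siRNA to define what HMGA1 regulates. Between these groups LOX had a log2 difference of 0.14 and PLOD2 of 0.059, and the other 7 genes lay below 0, down to -0.16 for P4HA1. The median was -0.054, where that of all 22011 transcripts was -0.012 and 53.9% of transcripts lay below 0. None of the 9 passed an adjusted p of 0.05 in limma (smallest adjusted p = 1.00, over all transcripts), and none was at an unadjusted p under 0.05. The share called among all transcripts was 0%, and 3.31% were at an unadjusted p under 0.05.

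LOX, the founding lysyl oxidase, was at 9.63, 9.69 and 11.38 on HMGA1 siRNA replicates 1, 2 and 3 and at 9.45, 9.48 and 11.36 on control siRNA replicates 1, 2 and 3. The replicate 3 array stood far above the other arrays in each group, so the groups overlapped. The means were 10.23 ± 0.99 with HMGA1 siRNA and 10.10 ± 1.09 with control siRNA (SD, n = 3 each), and the 95% interval of the difference ran from -1.33 to 1.60. Set against the control array of the same number, LOX was higher by 0.18 in replicate 1, by 0.21 in replicate 2 and by 0.020 in replicate 3. Without both replicate 3 arrays the HMGA1 siRNA arrays no longer overlapped the control arrays for LOX, with a log2 difference of 0.20 that did not pass the test (adjusted p = 1.00 from limma). Such a separation of 2 arrays from 2 was found in 13.2% of all transcripts. With 1 array left out the LOX difference ran from -0.43 without HMGA1 siRNA replicate 3 to 0.77 without control siRNA replicate 3. The replicate numbers are not stated to mark a shared culture or day.

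**Figure D1:**
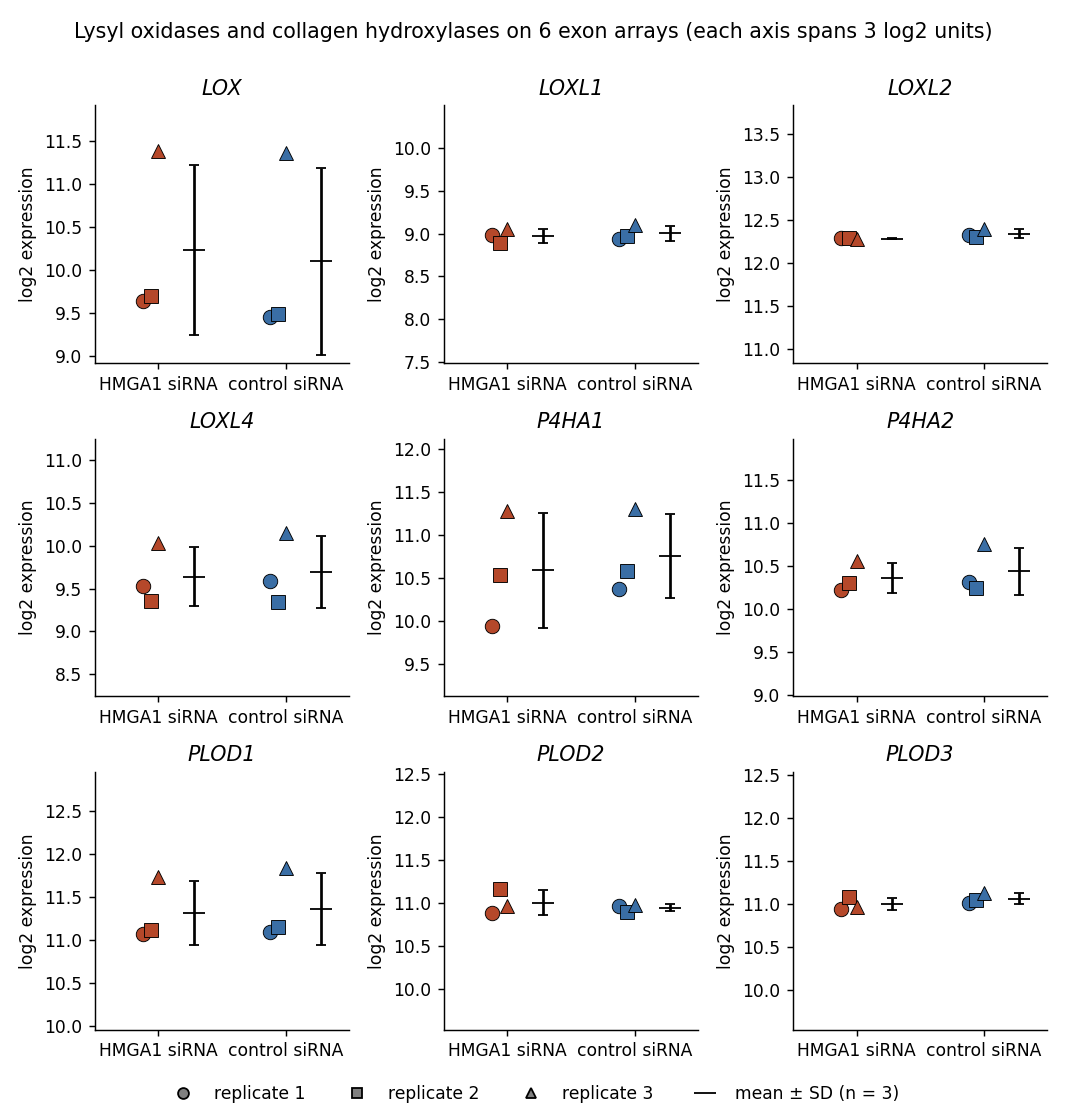
Log2 expression of the 9 genes on each array, with HMGA1 siRNA on the left and control siRNA on the right of each panel. The marker gives the replicate number and the bar the mean ± SD (n = 3), and every axis spans 3 log2 units. The replicate 3 array stands above replicates 1 and 2 in both groups for LOX, LOXL1, LOXL4, P4HA1, P4HA2 and PLOD1, though only slightly for LOXL1. The arrays of LOXL1, LOXL2, PLOD2 and PLOD3 lie close together.

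Among the other lysyl oxidases, LOXL1, which acts in the assembly of elastic fibres, was at 8.98, 8.89 and 9.05 with HMGA1 siRNA and at 8.94, 8.97 and 9.10 with control siRNA. LOXL2, known to cross-link collagen IV and to act in mesenchymal transition, was at 12.29, 12.29 and 12.28 with HMGA1 siRNA and at 12.33, 12.30 and 12.40 with control siRNA. LOXL2 was the only one of the 9 genes whose groups did not overlap, the HMGA1 siRNA arrays being the lower ones, a pattern found in 3.51% of all transcripts. The closest arrays, replicate 2 of each group, differed by -0.0069, the log2 difference was -0.056 (95% interval -0.25 to 0.14), and the separation was lost after quantile normalization and after median centring. LOXL4, a lysyl oxidase with scavenger receptor domains, was at 9.53, 9.36 and 10.03 with HMGA1 siRNA and at 9.59, 9.34 and 10.15 with control siRNA. Its log2 difference was -0.054 (standard error 0.24).

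P4HA1, the alpha subunit of the main prolyl hydroxylase, was at 9.94, 10.54 and 11.28 with HMGA1 siRNA and at 10.37, 10.57 and 11.30 with control siRNA. It varied most among replicates 1 and 2, over a range of 0.63. Most of its difference lay in replicate 1, where the HMGA1 siRNA array was lower by 0.43, against 0.038 in replicate 2 and 0.023 in replicate 3. P4HA2, the other alpha subunit, was at 10.22, 10.30 and 10.56 with HMGA1 siRNA and at 10.32, 10.25 and 10.75 with control siRNA, a log2 difference of -0.081 (standard error 0.16). A second, dimmer transcript annotated to P4HA2 was at 7.53, 7.30 and 7.27 with HMGA1 siRNA and at 7.64, 7.81 and 7.67 with control siRNA. On it all HMGA1 siRNA arrays were lower than all control siRNA arrays, a pattern found in 3.51% of all transcripts. The log2 difference was -0.34 (standard error 0.11, adjusted p = 1.00 from limma). The 95% intervals of the brighter (-0.45 to 0.29) and the dimmer P4HA2 transcript (-0.59 to -0.085) overlapped, and the gap between them was not tested.

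PLOD1, a lysyl hydroxylase of the collagen helix, was at 11.07, 11.12 and 11.74 with HMGA1 siRNA and at 11.09, 11.14 and 11.84 with control siRNA. Each HMGA1 siRNA array lay within 0.10 of the control array of its number. PLOD2, which hydroxylates the ends of collagen chains, was at 10.89, 11.17 and 10.96 with HMGA1 siRNA and at 10.97, 10.90 and 10.98 with control siRNA. Only HMGA1 siRNA replicate 2 was above all control arrays, by 0.27 over control siRNA replicate 2. PLOD3, which also transfers sugars to collagen, was at 10.94, 11.07 and 10.97 with HMGA1 siRNA and at 11.01, 11.04 and 11.13 with control siRNA, a log2 difference of -0.066 (95% interval -0.27 to 0.14).

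The larger differences ran between the replicate 3 arrays and the other arrays, whichever siRNA was used. LOX averaged 11.37 on the replicate 3 arrays (2 arrays) and 9.56 on the replicate 1 and 2 arrays (4 arrays), a log2 difference of 1.80 (standard error 0.086) or 3.49-fold. The difference was 1.71 within the HMGA1 siRNA arrays and 1.89 within the control siRNA arrays. P4HA1 was higher by 0.93 (standard error 0.18), PLOD1 by 0.68 (standard error 0.079), LOXL4 by 0.64 (standard error 0.11) and P4HA2 by 0.38 (standard error 0.088). LOXL1 was nearer to the other arrays, at 0.13 (standard error 0.080). LOXL2, PLOD3 and PLOD2 had differences of 0.036, 0.031 and -0.013, smaller than their standard errors of 0.079, 0.088 and 0.11.

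**Figure D2:**
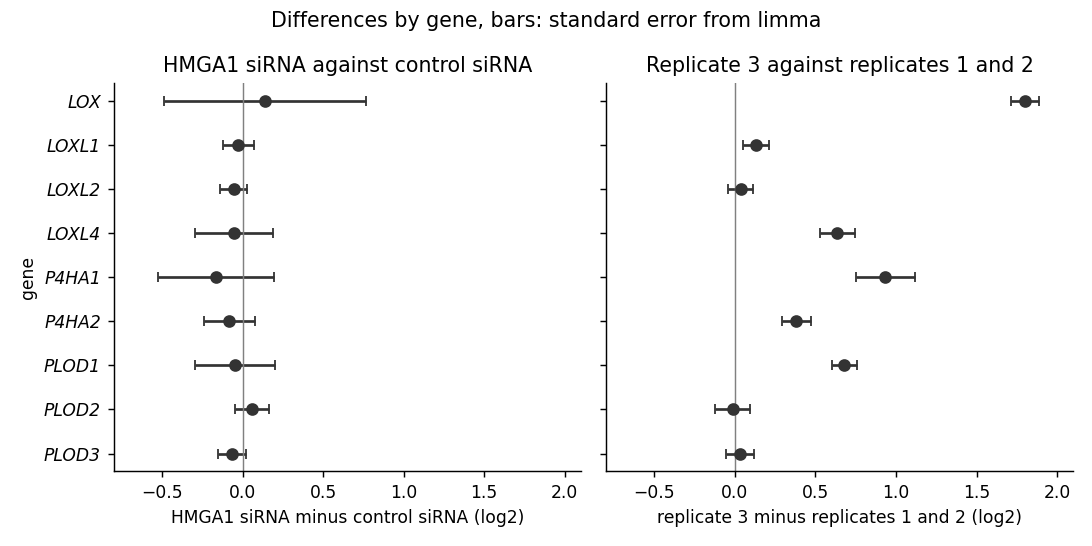
Log2 differences of the 9 genes, HMGA1 siRNA minus control siRNA on the left and replicate 3 minus replicates 1 and 2 on the right. Points are the estimates and bars the standard error from limma. On the left all points lie between -0.16 and 0.14, and on the right LOX reaches 1.80 while LOXL2, PLOD2 and PLOD3 lie near 0.

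The difference was above 0 in 8 of the 9 genes, as in 57.2% of all transcripts. In 6 of the 9 genes both replicate 3 arrays lay above the other 4, as in 11.4% of all transcripts. LOX and PLOD1 passed an adjusted p of 0.05 in limma with the siRNA as a term, where 0.2% of all transcripts (44 of 22011) were called higher and 59 lower. The genes were listed with this difference known, so neither count is read further. Both calls rest on few arrays. With 1 array left out the count was 4 without HMGA1 siRNA replicate 1, 1 without HMGA1 siRNA replicate 2, and 0 without HMGA1 siRNA replicate 3 or without any 1 of control siRNA replicates 1, 2 and 3. The LOX difference itself ran from 1.71 to 1.89 over these fits. For P4HA2 the higher level on the replicate 3 arrays was seen on the brighter transcript only. On the dimmer one the difference was -0.10, smaller than its standard error of 0.11. The difference between replicate 3 and the other arrays was itself compared between the siRNA groups. With 1 replicate 3 array per siRNA group this comparison has little precision, so a lack of calls does not make the groups alike. For LOX the interaction was -0.18 (standard error 0.21) and for P4HA1 0.21 (standard error 0.39), and in limma 0 of 22011 transcripts passed for this interaction (299, or 1.36%, at an unadjusted p under 0.05).

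What the replicate 3 arrays share besides their number is not stated in the labels, and the number cannot be told apart from whatever it stands for. Some epithelial markers moved with them. The adhesion protein CDH1 was at 7.28 and 7.56 on the replicate 3 arrays (HMGA1 siRNA and control siRNA), below all other arrays at 8.78 to 9.40. EPCAM was at 9.00 and 9.23 on the replicate 3 arrays, above all other arrays at 7.74 to 8.23. These were the 2 of 7 luminal or receptor-positive markers past the threshold, where 44 of 22011 transcripts were called higher and 59 lower. In the same list both replicate 3 arrays also lay above the other 4 for ERBB2 (log2 difference 0.10) and below them for GATA3 (-0.090). The mean of that list was 7.93 and 8.07 on the replicate 3 arrays, against 7.94 to 8.14 on the others. None of the 9 mesenchymal markers passed. Both replicate 3 arrays lay above the other 4 for CD44 and CAV1 and below them for EGFR and CDH2. Among all 22011 transcripts 2514 lay above in this way and 2863 below. The mean of the fibroblast markers was 6.97 and 7.00 on the replicate 3 arrays and 6.72 to 6.96 on the others, with none past the threshold. In 3 of the 7 fibroblast markers both replicate 3 arrays lay above the other 4, as in 11.4% of all transcripts. Of these, LUM had a log2 difference of 0.54 (adjusted p = 0.185 from limma), PDGFRB of 0.35 and COL1A2 of 0.22. Their part in the differences of the lysyl oxidases and hydroxylases was not tested.

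Over the 6 arrays LOX, PLOD1, LOXL4 and P4HA2 ran closely together, with Pearson's r from 0.929 to 0.987 for LOX with the other genes of this group, and P4HA1 had r = 0.891 with LOX. With LOX, LOXL1 had r = 0.865, LOXL2 0.388, PLOD3 0.229 and PLOD2 -0.010. These values describe 6 arrays in which the replicate 3 arrays set most of the range. Among 308 genes that varied at least 0.5 times as much as LOX, the most similar pattern was that of NDRG1 (r = 0.996), a gene induced by hypoxia. NDRG1 was at 12.22 and 12.29 on the replicate 3 arrays and at 10.81 to 10.93 on the others. The bradykinin receptor BDKRB1 (r = 0.992), ASAP3 (r = 0.987) and the endoplasmic reticulum peroxidase GPX7 (r = 0.983) came next. Among 1255 genes taken in the same way, P4HA1 was most similar to CAPRIN2 (r = 0.979), SGMS2 (r = 0.962), the KIT ligand KITLG (r = 0.959) and the Wnt receptor FZD3 (r = 0.958). Among 6196 genes, LOXL4 was most similar to the growth factor BMP4 (r = 0.995), ATP8A1 (r = 0.995), the receptor MST1R (r = 0.991) and SH3BP2 (r = 0.990). The range of NDRG1 was 1.47 over the 6 arrays and 0.12 within replicates 1 and 2. Such similarity largely restates the replicate 3 difference and is no separate evidence.

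**Figure D3:**
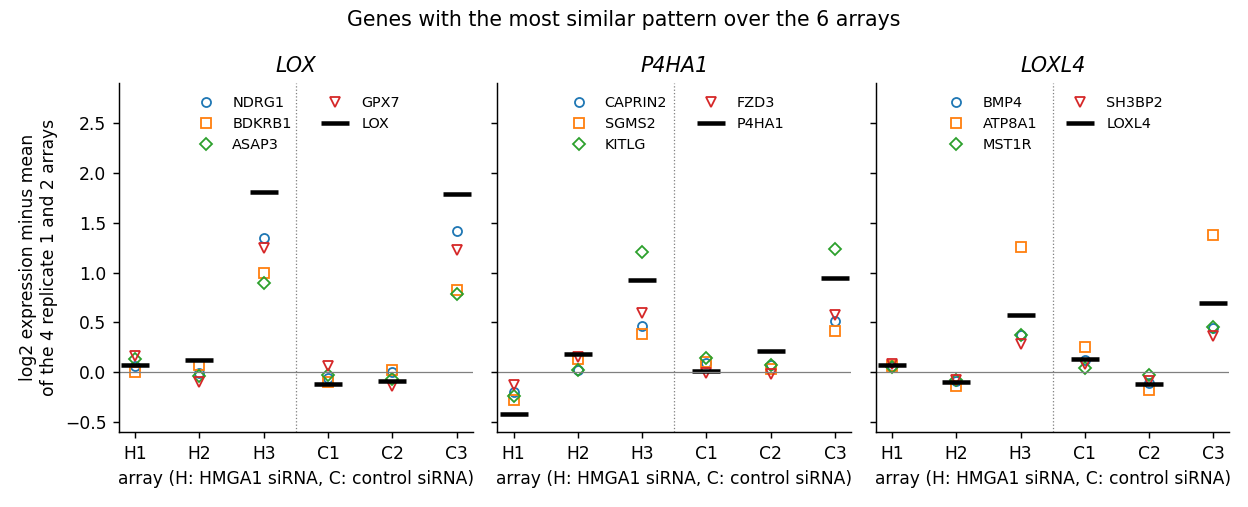
Log2 expression on each array minus the mean of the 4 replicate 1 and 2 arrays, for LOX, P4HA1 and LOXL4 (black bars) and the 4 genes with the highest Pearson correlation to each (open markers). H1 to H3 are HMGA1 siRNA and C1 to C3 control siRNA replicates. The genes stand up on H3 and C3, and P4HA1 and its neighbours also lie low on H1.

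Of 22 listed genes of collagen folding and processing 17 were measured, and P4HB, the partner of both prolyl hydroxylase subunits, was not among them, since it has no transcript of its own here. With HMGA1 siRNA their differences ran from -0.33 to 0.21, the median was -0.039, 4 genes lay above 0, 13 lay below it, and 0 passed. The collagen chaperone SERPINH1 was at 11.73, 11.80 and 11.82 with HMGA1 siRNA and at 12.11, 12.17 and 12.06 with control siRNA, a log2 difference of -0.33 (standard error 0.086, adjusted p = 1.00 from limma). Its groups did not overlap, a pattern with the HMGA1 siRNA arrays lower in 3.51% of all transcripts. In the other direction the groups of COLGALT1 (0.14) and P3H2 (0.15) did not overlap, as in 942 of 22011 transcripts. The procollagen protease ADAMTS14 was at -0.20, while the prolyl isomerase FKBP14 was at 0.21 and the prolyl hydroxylase P3H1 at 0.20. On the replicate 3 arrays the median was 0.041, with 10 of the 17 above 0, beside a median of 0.028 for all transcripts, and 0 passed. ADAMTS14 and P3H1 were at 0.30 each, FKBP14 at -0.19 and P3H2 at -0.076.

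Of 20 listed substrates, the collagens and elastic fibre genes, 18 were measured. With HMGA1 siRNA 8 lay above 0 and 10 below (median -0.042), with fibrillin FBN1 at 0.53 (standard error 0.15), COL12A1 at 0.21, COL4A2 at -0.30 and COL6A3 at -0.18. The groups did not overlap in 2 genes with HMGA1 siRNA higher (FBN1 and COL12A1) and in 2 with it lower (COL4A2 among them). These patterns were found in 942 and 773 of 22011 transcripts. On the replicate 3 arrays the median was 0.095, and 13 genes were above 0. COL5A1, a chain of collagen V, was at 9.95 and 9.92 on the replicate 3 arrays and at 9.28 to 9.56 on the others, a log2 difference of 0.55 (standard error 0.090, adjusted p = 0.0924 from limma). COL6A3 was at 0.32, COL4A1 at -0.34 and FBN1 at -0.32. None of the 18 passed in either comparison.

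Of 26 listed genes of oxygen sensing and HIF targets 22 were measured. With HMGA1 siRNA 11 lay above 0 and 11 below (median -0.0075) and 0 passed, with EPAS1, an oxygen-regulated HIF subunit, at 0.37 (standard error 0.11), VHL at 0.20, VEGFA at -0.29 and MXI1 at -0.23. The groups did not overlap in 2 genes with HMGA1 siRNA higher (EPAS1 among them) and in 1 with it lower (VEGFA), as in 942 and 773 of 22011 transcripts. On the replicate 3 arrays the median was 0.16, and 17 genes (77.3%) were above 0, beside a median of 0.028 and 57.2% above 0 for all transcripts. In 9 of the 22 genes both replicate 3 arrays lay above the other 4, as in 11.4% of all transcripts, and in 0 both lay below. All 4 lists were chosen with earlier results of these arrays known. Their medians, shares and calls are therefore a description and are not read further. The carbonic anhydrase CA12 was higher by 1.53 (standard error 0.096, adjusted p = 0.00890), NDRG1 by 1.38 (standard error 0.083, adjusted p = 0.00870) and the kinase PDK1 by 1.03 (standard error 0.083, adjusted p = 0.0177, all from limma), the 3 genes past the threshold over all 4 lists of this kind, where 0.2% of all transcripts were called higher. This count was 6 without HMGA1 siRNA replicate 1, and 0 without HMGA1 siRNA replicate 3 or any 1 control array. VHL was at -0.25 and HIF1AN at -0.20, and the hormone ADM, also a HIF target, was at 9.38 and 9.41 on the replicate 3 arrays and at 9.39 to 9.63 on the others. Of 10 listed genes of copper and ascorbate supply 9 were measured and none passed in either comparison. The ascorbate transporter SLC23A2 was at -0.28 and the copper pump ATP7A at -0.23 with HMGA1 siRNA, and the copper transporters SLC31A1 and SLC31A2 were at 0.14 and 0.077. The groups did not overlap in 1 gene with HMGA1 siRNA higher (SLC31A1) and in 1 with it lower (SLC23A2). On the replicate 3 arrays ATP7A was at 0.27, ATP7B at 0.19, ATOX1 at -0.23 and GSTO1 at -0.14, and the medians of the list were -0.068 with HMGA1 siRNA and 0.057 on the replicate 3 arrays.

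**Figure D4:**
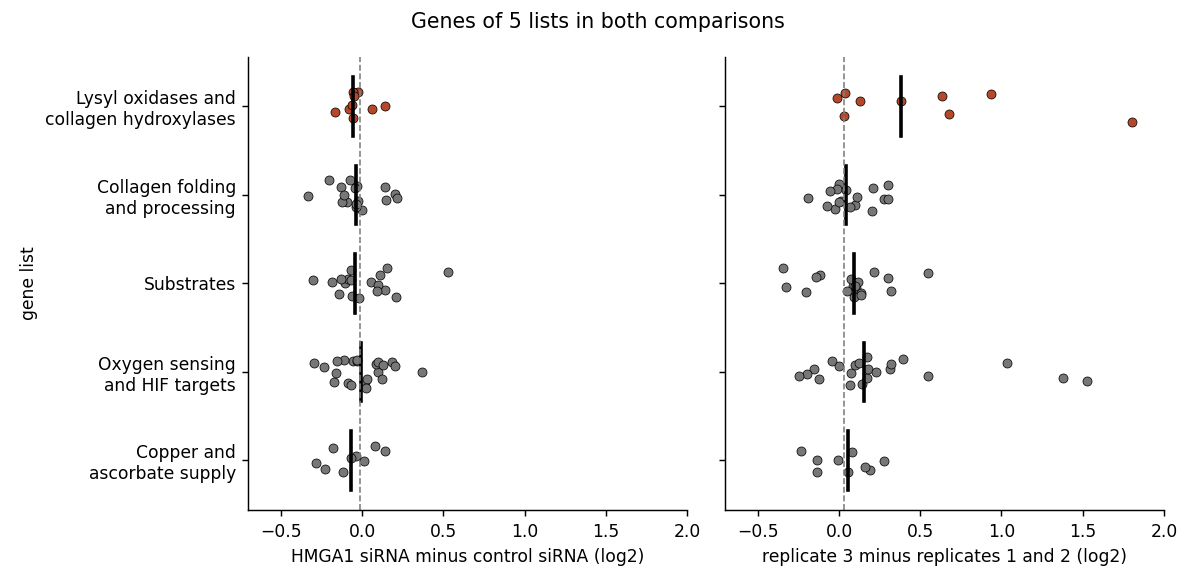
Log2 differences of the genes of 5 lists, HMGA1 siRNA minus control siRNA on the left and replicate 3 minus replicates 1 and 2 on the right. Points are genes, black bars list medians and the dashed line the median of all transcripts. On the right the 9 lysyl oxidases and hydroxylases have a median of 0.38, and the HIF targets CA12, NDRG1 and PDK1 lie above 1.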

How the data were processed

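The authors deposited 1 table of log2 values per transcript and array, made with RMA, which corrects background, normalizes arrays and summarizes probes, in the oligo package, and the submitters' processing notes also name limma and hg18, with no versions. All 6 columns were used. Arrays correlated at 0.982 to 0.995 and none were identical. Background signal left by RMA compresses the fold changes of dim transcripts.

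Of 22011 transcripts, 14432 list 1 gene symbol (14404 matched RefSeq, GRCh38.p14, used for names), 2408 several and 5171 are unnamed here. Genes were described through the transcript of the highest mean. Two-sided moderated tests were run by lmFit and eBayes (limma 3.58.1, R 4.3.3; Benjamini-Hochberg over all transcripts, threshold 0.05), without covariates for the siRNA, and with the siRNA as a term for the replicate 3 arrays. The methods name moderated tests in limma. Members and lists were chosen with earlier results of these data known. Genes were named as all members and HMGA1, from each list up to 2 per side with the largest difference, and 4 per member most similar to the 3 members of widest range. ADM, PDK1, P4HB, COLGALT1 and single markers were named after their values were seen.

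The labels call the arrays biological replicates, and the study describes the replicates of each condition as independent. The steps were tested on simulated data with known changes. Alternatives were a replicate block, a term for replicate 3, no siRNA term, leaving out arrays, array weights, a prior both trended and robust, median centring, quantile normalization, removal of the dimmest 40% of transcripts, transcripts with 1 symbol, averaging the transcripts of a gene, and a threshold of 0.10. Figures were drawn with matplotlib 3.10.9.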

Additional observations from a re-analysis of the deposited data

How the results depend on the processing

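Between HMGA1 siRNA and control siRNA none of the 9 genes passed under any of 17 alternatives, and 0 transcripts were called in 16 of them. Array weights called 198 and put HMGA1 itself at -0.46 (adjusted p = 0.0376), in a fit that rests mainly on HMGA1 siRNA replicate 3 (weight 6.80). The median of the 9 genes ran from -0.18 to 0.075 with 1 array left out and was 0.19 with array weights. Deviations from the group means of same-numbered arrays correlated at -0.20 for replicate 1, 0.26 for replicate 2 and 0.53 for replicate 3. Since replicate 1 was below 0, the numbers were not taken to pair all samples, although the replicate 3 arrays were each other's best match across the groups. With the replicate block the count of transcripts called was 0 and the median of the 9 genes -0.054. For the replicate 3 arrays the 2 calls among the 9 genes became 1 after median centring. LOX stayed and PLOD1 was lost (adjusted p = 0.0513 from limma). The calls became 4 without the dimmest transcripts, 4 with the trended and robust prior and 6 with array weights. With 1 array of replicates 1 and 2 left out they were 0 to 4. The 103 calls over all transcripts became 407 without the dimmest transcripts, 371 with the trended and robust prior, 6341 with array weights, 212 with only transcripts of 1 symbol, 247 at a threshold of 0.10, 164 without the siRNA term, and 0 to 1046 with 1 array left out. The weights of that fit stopped short of convergence. Averaging the P4HA2 transcripts moved the median of the 9 genes to 0.14. Calls among the other lists became 5 without the dimmest transcripts, 6 with the trended prior, 27 with array weights, 5 with 1 symbol, 5 at 0.10 and 0 to 6 with 1 array left out. The interaction called 0 to 12 transcripts with 1 array left out, a fit that could not be made without a replicate 3 array. The cause of these shifts was not tested. LOX, LOXL1, LOXL4, P4HA1, P4HA2 and PLOD1 stayed above 0 on the replicate 3 arrays in all 17 alternatives. For these genes both replicate 3 arrays lay above the other 4, so leaving out an array could not change the sign. LOXL2 and PLOD3 were above 0 in 15 of the 17 and PLOD2 in 5.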
